A study of Mus musculus with 159 samples.

Results

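D17H6S56E-5 and Vars are adjacent genes of mouse chromosome 17, and they were chosen by their measured levels in these same tumors, which split into high and low. The 2 genes were taken by symbol from the platform annotation of the array, each from its single probe set, out of 18954 genes named there. The arrays measured total RNA of whole mammary tumors from 159 female animals, 1 tumor per animal, harvested at about 100 days of age without treatment. All tumors formed 1 group, labelled DO x PyMT, and no control tissue was analysed here. Every animal was a first-generation offspring of an FVB/NJ mouse that carried the polyoma middle T transgene (PyMT) under the mouse mammary tumor virus promoter (MMTV) and of a Diversity Outbred (DO) mouse of generation 7, so that each tumor held 1 FVB/NJ copy of the chromosome region and 1 copy from the outbred parent. The DO population is an outbred stock bred from 8 inbred strains, and siblings among the tumors are not identified in the labels and were not accounted for. In whole tumors, fewer cells of a type and less RNA per cell cannot be told apart.

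Vars encodes the valyl-tRNA synthetase of the cytosol, which joins valine to its transfer RNAs so that ribosomes can place it in a growing protein. Each amino acid has such an enzyme, most cell types depend on all of them, and several of them form a large complex held together by scaffold proteins. Valyl-tRNA synthetase stands outside that complex and binds subunits of elongation factor 1, which brings charged transfer RNAs to the ribosome. D17H6S56E-5 is annotated in RefSeq as a protein-coding gene with the older name G7e, and no role is given to it here. Both genes lie in the major histocompatibility region, H2, which also holds H2-Ea and H2-Eb1. Those encode the alpha and beta chains of the class II E molecule, which presents peptides on the surface of antigen-presenting cells.

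In the RefSeq annotation of build GRCm38.p6, D17H6S56E-5 occupied bases 34996678 to 35000774 of chromosome 17 and Vars bases 35000907 to 35016329, which left 0.132 kb between them. H2-Eb1 spanned 34305867 to 34316674 and H2-Ea 34341952 to 34344645 of the same chromosome, 680 and 652 kb before the pair. The sequence between the pair is shown because it is the only DNA that separates the 2 genes whose levels ran together. It is read from RefSeq's promoter window of D17H6S56E-5, on the minus strand, at chr17:35000775-35000918, and it covers the gap between the genes and the first 12 bases of the annotated Vars span. The capitals mark both copies of a 27-base direct repeat, the longest that a search of the 300-base window found, with 8 bases between the copies.
Stretch between Vars and D17H6S56E-5: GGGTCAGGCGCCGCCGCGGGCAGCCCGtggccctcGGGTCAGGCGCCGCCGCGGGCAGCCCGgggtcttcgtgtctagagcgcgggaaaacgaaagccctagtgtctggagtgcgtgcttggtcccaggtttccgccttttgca
G and C made up 70.1% of this stretch. In the whole 300-base window they made up 67%, against a median of 52.7% over 32851 RefSeq promoter windows of that length. The letters AANNGAAA, the core of sites bound by interferon regulatory factors, occurred at 2 places in the 300-base window with both strands searched, and 23.9% of all windows held them. The letters of the GC box (GGGCGG), the CCAAT box (CCAAT), the E-box (CACGTG), the cAMP response element (TGACGTCA), the response element of ATF4 and its partners (TGATGNAA) and the TATA box (TATAAA) were not in this window, against 35.7%, 37.4%, 7.15%, 1.79%, 3.97% and 13.6% of all windows. A match or its lack is a description of these letters alone.

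The array medians of the values as deposited ran from 6.81 to 7.18 on the log2 scale, and each array was shifted to the median array before any value below was taken. The arrays of 6 tumors correlated with the other arrays at a median of 0.895 to 0.940, and are called the low-correlation arrays. They are those of animals 14552, 14562, 14794, 14795, 14864 and 14903, and values without them are given beside the main results. Krt8, Krt18 and Epcam, markers of the luminal epithelium from which these tumors arise, lay above the array background of 5.78 in all 159 tumors. The background is the 95th percentile of the mean values of 1215 olfactory, vomeronasal and taste receptor genes.

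D17H6S56E-5 fell into 2 levels with a gap between them. Its log2 values ran from 7.11 to 9.11 with a median of 8.20 in 95 tumors and from 9.77 to 12.35 with a median of 11.64 in the other 64. The means were 8.18 ± 0.34 (SD, n = 95) and 11.54 ± 0.55 (SD, n = 64), a difference of 3.37 that corresponds to 10.3-fold, and no tumor lay within 0.15 of the boundary at 9.51. The levels come from a mixture of 2 normal distributions, called where its Bayesian information criterion is lower by more than 20 than that of 1 distribution, its separation (Ashman's D) is above 2.5 and the smaller part holds at least 10% of tumors. The criterion was lower by 225 and D was 7.44. The members nearest the boundary were at 8.94, 9.06 and 9.11 on the low side and at 9.77, 10.20 and 10.37 on the high side. These values chose the gene and are given without a test. Whether strain variants lie under the probes of this gene, Vars, H2-Ea or H2-Eb1 could not be examined. A difference in their signal therefore cannot be told apart from one in probe binding.

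Vars also passed the rule for 2 levels, but its levels met without a gap. Its log2 values ran from 8.73 to 9.51 with a median of 9.22 in 84 tumors and from 9.56 to 10.35 with a median of 9.87 in 75 tumors. The means of 9.22 ± 0.15 (SD, n = 84) and 9.88 ± 0.17 (SD, n = 75) differed by 0.66, or 1.58-fold, far less than those of D17H6S56E-5. The information criterion was lower by 37.7 and D was 3.91, and 21 tumors lay within 0.15 of the boundary at 9.52. The values nearest to it were 9.50, 9.50 and 9.51 below and 9.56, 9.57 and 9.59 above, so that the level of a tumor near it is not firm.

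**Figure D1:**
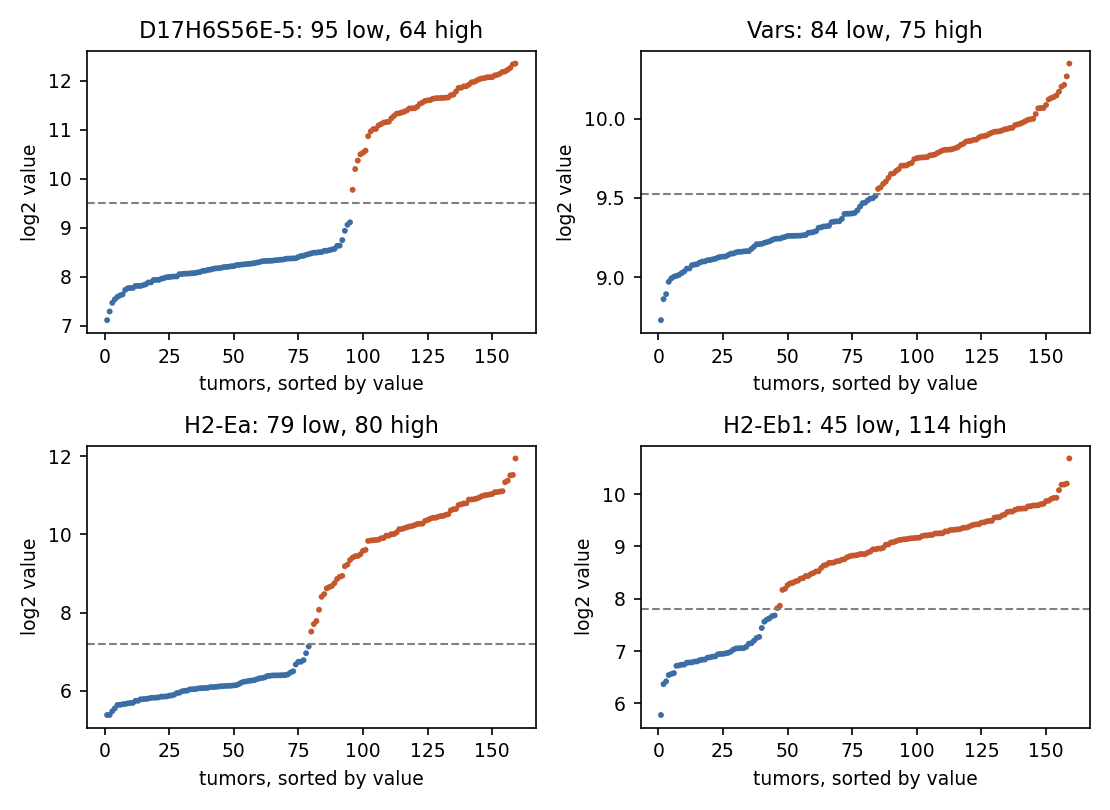
Log2 values of D17H6S56E-5, Vars, H2-Ea and H2-Eb1 in 159 tumors, each panel sorted from the lowest to the highest value, with the boundary between levels as a dashed line and the high level in orange. D17H6S56E-5 steps from 9.11 to 9.77 at its boundary, whereas the Vars values pass their boundary of 9.52 without a step.

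The 2 genes were high in largely the same tumors. Of 159 tumors, 91.8% had both genes on the same level, 83 tumors low and 63 high. In the 63 tumors with both high, Vars ran from 9.57 to 10.35 with a median of 9.89, and in the 83 with both low from 8.73 to 9.51 with a median of 9.22. When the tumors were divided by D17H6S56E-5 alone, the Vars mean was 9.90 ± 0.17 (SD, n = 64) on the high level and 9.28 ± 0.22 (SD, n = 95) on the low level, a difference of 0.62 or 1.54-fold. The Vars values of the 2 divisions overlapped. 23 of the low tumors lay above the lowest of the high tumors, at 9.40, and 45 of the high tumors lay below the highest of the low tumors, at 9.97.

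In 13 tumors the levels differed, and in 12 of these Vars was high while D17H6S56E-5 was low. These 12 had Vars values of 9.56 to 9.97 with a median of 9.70, and D17H6S56E-5 values of 7.11 to 8.63 with a median of 8.39, inside the range of the other low tumors except for the one at 7.11. The tumor of animal 14794, with the lowest D17H6S56E-5 value of the series, 7.11, had Vars at 9.77, and its array was 1 of the low-correlation arrays. The tumor that broke the pattern the other way, of animal 14864, had D17H6S56E-5 at 10.20 and Vars at 9.40, and it was on a low-correlation array too. Without the 6 low-correlation arrays, 92.8% of tumors were on the same level for both genes, and all 11 others had Vars high and D17H6S56E-5 low.

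Animal numbers fell into 4 runs separated by gaps, and the pair was compared within each. The levels of the 2 genes were the same in 47 of 53, 48 of 52, 46 of 49 and 5 of 5 tumors. D17H6S56E-5 was high in 24 of 53, 23 of 52 and 17 of 49 tumors of the first 3 runs and in 0 of 5 of the last.

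On the low level of D17H6S56E-5 the 2 genes were modestly related, and on its high level only weakly. Pearson's r of D17H6S56E-5 with Vars was 0.24 (Spearman's rho 0.37, n = 95) on the low level and 0.21 (rho 0.11, n = 64) on the high level. Without the low-correlation arrays r was 0.37 (rho 0.43, n = 91) and 0.11 (rho 0.07, n = 62). Without the 2 tumors farthest from the median of D17H6S56E-5 it was 0.36 and 0.08. On the low level r was 0.52, -0.18 and 0.42 in the first 3 runs of animal numbers, and on the high level 0.29, 0.20 and 0.04.

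**Figure D2:**
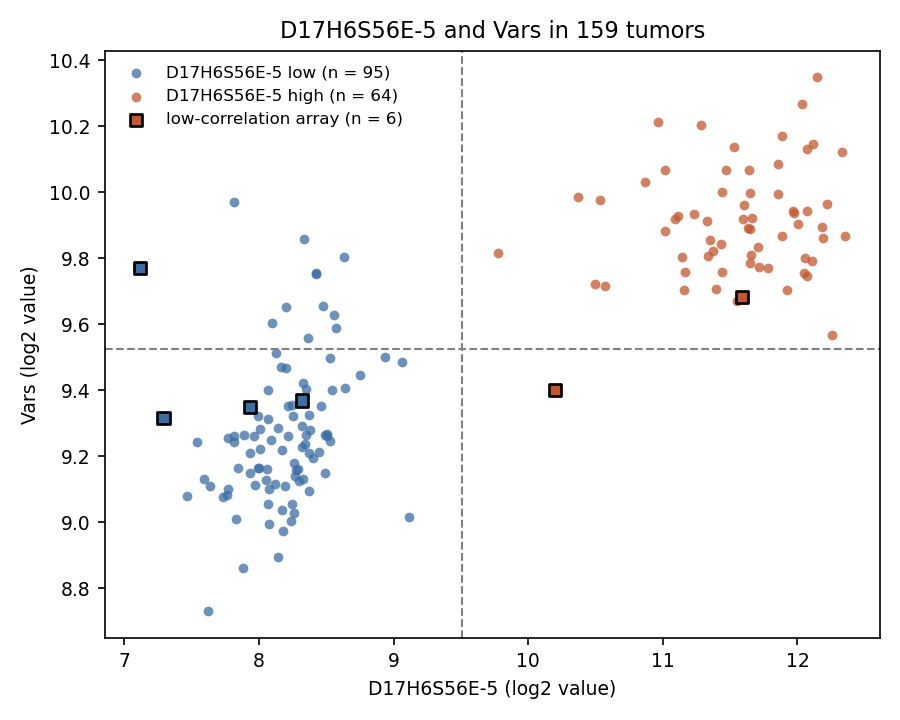
Vars against D17H6S56E-5, both as log2 values, with 1 point per tumor, the level boundaries as dashed lines and the 6 low-correlation arrays as outlined squares. The 63 tumors with both genes high and the 83 with both low occupy opposite corners, and the 2 most isolated of the 13 other tumors, at D17H6S56E-5 values of 7.11 and 10.20, are squares.

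H2-Ea and H2-Eb1 each had 2 levels as well, and they combined with those of D17H6S56E-5 unevenly. H2-Ea was low in 79 tumors (5.38 to 7.13) and high in 80 (7.51 to 11.94), and H2-Eb1 low in 45 (5.78 to 7.68) and high in the other 71.7% (7.82 to 10.68). Among tumors with D17H6S56E-5 high, H2-Ea was high in 18 of 64 (28.1%), with values of 5.38 to 11.94 and a median of 6.32. Among those with D17H6S56E-5 low, it was high in 62 of 95 (65.3%), with values of 5.38 to 11.52 and a median of 9.84. The ranges overlapped almost whole, and what differed was the share of tumors on each level.

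H2-Eb1 alone showed no such imbalance. It was high in 45 of 64 tumors (70.3%) with D17H6S56E-5 high and in 69 of 95 (72.6%) with D17H6S56E-5 low, with medians of 8.66 and 9.13.

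The 2 class II genes in combination separated the tumors further. With D17H6S56E-5 high, no tumor had H2-Ea high and H2-Eb1 low, whereas 24 of the 95 tumors with D17H6S56E-5 low did. The reverse combination, both class II genes low, was found in 19 of the 64 tumors with D17H6S56E-5 high and in 2 of the 95 with it low. In those 19, D17H6S56E-5 ran from 9.77 to 11.97 with a median of 11.37, and Vars was high in all of them (9.67 to 10.09). The other 2 had D17H6S56E-5 at 7.11 and 8.56 and Vars at 9.77 and 9.63, so both were among the 13 tumors in which the pair differed in level, and the first was on a low-correlation array. H2-Ea low with H2-Eb1 high was found with both levels of D17H6S56E-5, in 27 tumors with it high and 31 with it low, as were both class II genes high, in 18 and 38. No combination of class II levels stood for 1 level of D17H6S56E-5 without exception, other than the 24 tumors with H2-Ea high and H2-Eb1 low.

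Among tumors with D17H6S56E-5 high, its value varied with H2-Eb1. The median was 11.37 where both class II genes were low, 11.89 where H2-Ea was low and H2-Eb1 high (10.20 to 12.35), and 11.64 where both were high (11.01 to 12.19). The highest value among tumors with H2-Eb1 low was 11.97. Above it lay 17 of the 64 tumors, which have H2-Eb1 high because the cut was set this way. The r of D17H6S56E-5 with H2-Eb1 on this level was 0.47 (rho 0.48, n = 64; 95% interval 0.25 to 0.64), 0.53 without the low-correlation arrays, and 0.64, 0.34 and 0.23 in the first 3 runs of animal numbers. Vars showed no such spread, with medians of 9.86, 9.87 and 9.90 in the same 3 sets of tumors and r with H2-Eb1 of -0.02 (95% interval -0.27 to 0.23). Luminal epithelial markers moved with these D17H6S56E-5 values too. The mean standardized value of 8 such markers, all of them above background, ran from -5.51 to 1.13 in these 64 tumors and had r of 0.51 with D17H6S56E-5, 0.49 without the low-correlation arrays, and its part in the relation to H2-Eb1 was not tested.

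Among tumors with D17H6S56E-5 low, it was Vars that varied with H2-Eb1, in the opposite direction. The r was -0.35 (rho -0.43, n = 95; 95% interval -0.52 to -0.16), -0.33 without the low-correlation arrays, and -0.17, -0.40 and -0.26 in the first 3 runs. Without the 2 tumors farthest from the Vars median it was -0.32, and -0.30, -0.08 and -0.14 in these runs, each without its own 2. The 95 tumors include 83 with Vars low and 12 with Vars high, and r was not taken within a level of Vars. The r of Vars with H2-Ea was -0.16 (95% interval -0.35 to 0.04). That of D17H6S56E-5 with H2-Eb1 was 0.08 (-0.12 to 0.28), and -0.03, 0.45 and -0.26 in the first 3 runs. The intervals given here and for the high level treat tumors as independent, although siblings were not accounted for, and are no test. Macrophage and dendritic cell markers, whose cells express class II genes, ran against Vars among tumors on its low level, with r of -0.38 for the mean of 9 markers (range -1.05 to 2.43, n = 84), and on its high level r was -0.02 (range -1.62 to 2.04, n = 75). The part of these cells in the relation was not tested. The other class II genes measured, H2-Aa, H2-Ab1, H2-Eb2, H2-DMa and H2-Oa, with Cd74 and Ciita, the invariant chain and the regulator of the class II genes, showed a single level each. Their rho with D17H6S56E-5 over all tumors lay between -0.13 and 0.15, and with Vars between -0.35 and -0.15. The mean of H2-Eb2, 5.73, lay below the array background.

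**Figure D3:**
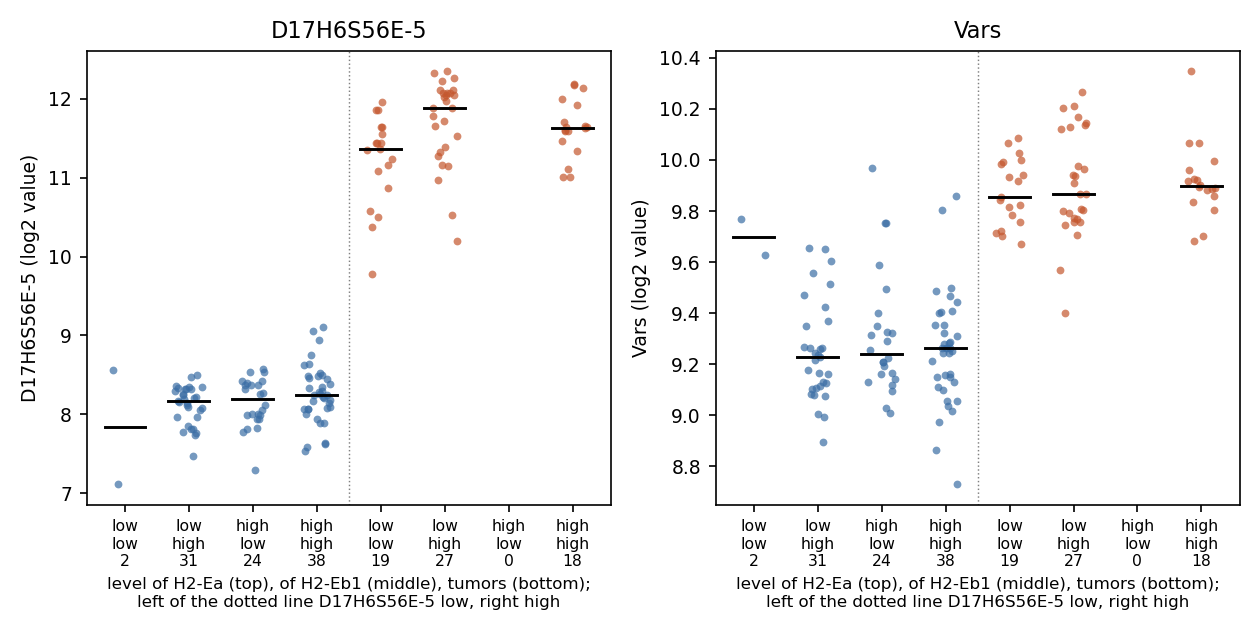
Log2 values of D17H6S56E-5 (left) and Vars (right) in tumors divided by the levels of D17H6S56E-5, H2-Ea and H2-Eb1, with 1 point per tumor and the median as a bar. No tumor has D17H6S56E-5 high with H2-Ea high and H2-Eb1 low, and 24 have it low with that combination.

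The genes around the pair did not share its 2 levels. None of the 5 measured genes on either side (Slc44a4, Neu1, Snord52, Hspa1l and Lsm2 before the pair, Vwa7, Sapcd1, Msh5, Clic1 and Ddah2 after it) passed the rule for 2 levels, and their SD over the tumors was 0.12 to 0.49, against 1.71 for D17H6S56E-5 and 0.37 for Vars. Vwa7, the next gene after Vars, had rho of -0.03 with D17H6S56E-5 and -0.07 with Vars. Lsm2, an RNA-binding protein gene and the nearest on the other side, had 0.31 and 0.48. Clic1, an intracellular chloride channel gene, had 0.49 and 0.43, and its median was 10.78 in tumors with D17H6S56E-5 high (9.92 to 11.07) and 10.62 in those with it low (9.39 to 11.04). Snord52, a small nucleolar RNA gene, had 0.42 and 0.52, but its mean of 5.57 lay below the array background. The rank correlation here is a measure of likeness over 159 tumors that share arrays and relatives, and it is given without a test.

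Over all genes, the pattern most like that of each member was that of the other, with rho of 0.77. After it, the 10 genes most like D17H6S56E-5 were Cyp4f16 (0.52), Clic1 (0.49), Rab11b (0.47), Snord52 (0.42), B3galt4 (0.42), Tfb1m (0.40), Depdc1a (0.40), Lekr1 (0.39), Apobec3 (0.39) and Gpank1 (0.39). Of these, 7 lay on chromosome 17, which holds 4.73% of the 18952 genes. All of them but Tfb1m, 31.5 Mb away, lay within 2.5 Mb of the pair. Cyp4f16 encodes a cytochrome P450 and Rab11b a small GTPase of recycling endosomes.

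The 10 genes most like Vars after D17H6S56E-5 were Vars2 (0.54), Snord52 (0.52), U2af1 (0.50), Mms22l (0.50), Snord49a (0.48), Mcm4 (0.48), Lsm2 (0.48), Bard1 (0.48), Pitrm1 (0.48) and Nelfe (0.47), of which 5 lay on chromosome 17. Vars2, the valyl-tRNA synthetase of mitochondria, stands 659 kb from the pair and led this list. U2af1 encodes a splicing factor. Outside chromosome 17 the list went on with Fbxo5, Parp1, Ints3, Hmgb2 and Cenpf (0.46 to 0.47), the last of which encodes a centromere protein. For D17H6S56E-5 it went on with Chmp4c (0.37), Cyp11a1 (-0.36, below background), Letmd1 (0.36), Hyls1 (0.36), Cep41 (0.36), Top2a (0.36) and Ccdc28a (0.36).

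Most genes near the pair had an absolute rho of at most 0.3 with either member. An absolute rho above 0.3 with D17H6S56E-5 was found in 7 of 40 genes within 0.25 Mb (17.5%), 2 of 63 from 0.25 to 1 Mb (3.17%), 9.27% from 1 to 5 Mb, 17 of 378 from 5 to 20 Mb (4.50%) and 13 of 265 farther away on chromosome 17 (4.91%), against 161 of 18030 genes of other chromosomes (0.893%). With Vars the shares were 32.5%, 22.2%, 11.9%, 12.4% and 14.7%, against 7.59% on other chromosomes, and did not fall steadily with distance. The median absolute rho within 0.25 Mb was 0.11 for D17H6S56E-5 and 0.14 for Vars, and from 0.25 to 1 Mb it was 0.15 and 0.21, against 0.12 and 0.14 on other chromosomes.

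**Figure D4:**
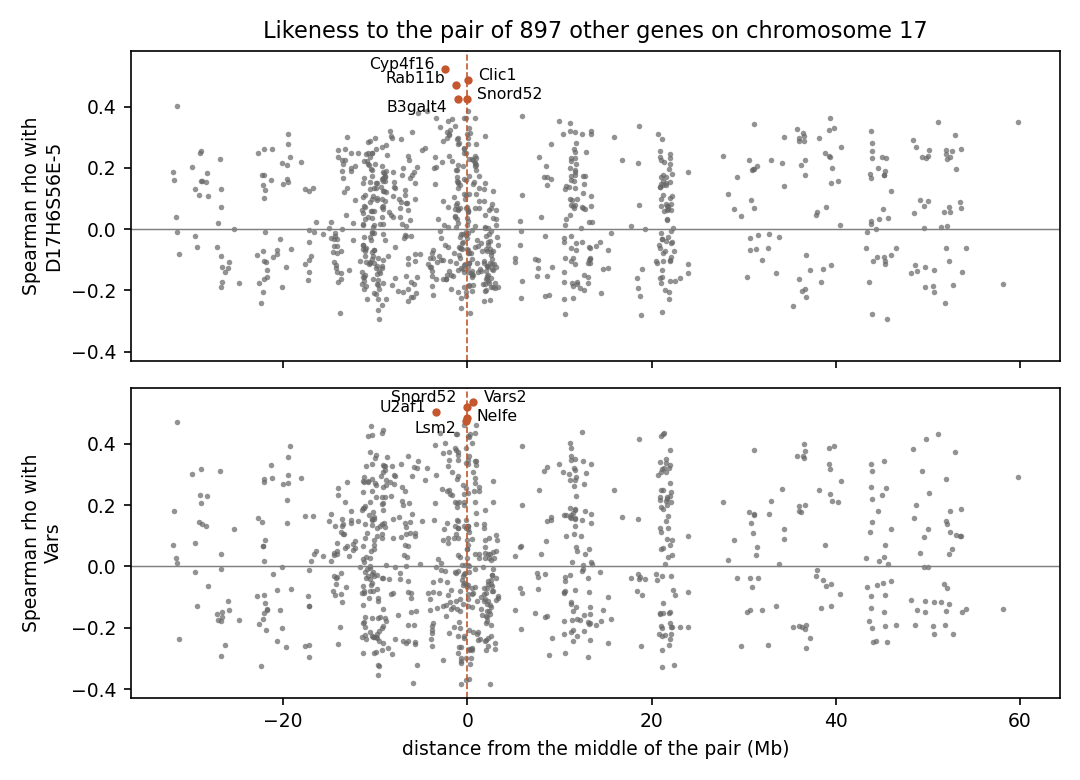
Spearman's rho with D17H6S56E-5 (top) and Vars (bottom) of 897 other genes of chromosome 17, against their distance from the middle of the pair in Mb, with the 5 most alike in orange. For both members the 5 highest points lie within 4 Mb of the pair, among many genes near 0.

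The other aminoacyl-tRNA synthetase genes did not share the 2 levels of Vars. None of the 18 measured cytosolic genes other than Vars and none of the 16 mitochondrial ones passed the rule for 2 levels, and the SD of the cytosolic genes was 0.16 to 0.33 with a median of 0.21, below the 0.37 of Vars in all 18. Whether they follow Vars beyond its levels was tested with limma, by a fit of every gene on the log2 value of Vars with the level of Vars as a term. A slope is then the log2 change of a gene per log2 unit of Vars among tumors of 1 level. Over all genes, 10.2% of 18952 passed an adjusted p of 0.05 (Benjamini-Hochberg over all genes), 6.26% with a slope above 0. Slopes above 0 made up 61.5% of these calls, 87.3% with the values as deposited and 75.9% after quantile normalization. Without the 6 low-correlation arrays the shares were 19.5% and 11.3%. Where few or no listed genes passed, counts at an unadjusted p of 0.05 are given as well. The share of all genes at that p is not given, so these counts are not read as more or less than it.

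Of the 18 cytosolic genes, 4 (22.2%) followed Vars upward and none downward, and 17 of 18 slopes were above 0, with a median of 0.24 against -0.01 over all genes. Tars, the threonyl enzyme, ran from 7.65 to 9.53 with a median of 8.44 and had the steepest slope, 0.51 ± 0.14 (SE; limma adjusted p = 0.012). Kars, the lysyl enzyme, ran from 8.58 to 10.07 with a median of 9.55 and had a slope of 0.39 ± 0.09 (adjusted p = 0.0040). Eprs, which joins glutamate and proline, had 0.31 ± 0.08 (adjusted p = 0.0083) with values of 9.14 to 10.17, and Farsa, a subunit of the phenylalanyl enzyme, had 0.25 ± 0.09 (adjusted p = 0.045) with values of 8.15 to 9.32. Lars and Hars, the leucyl and histidyl enzymes, had slopes of 0.38 and 0.28 and adjusted p of 0.059 and 0.060. The smallest effects were in Qars, Nars and Sars, the glutaminyl, asparaginyl and seryl enzymes, with slopes of -0.01, 0.01 and 0.05 (adjusted p = 0.95, 0.95 and 0.79).

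The mitochondrial enzymes gave a like count. Of 16 measured genes, 4 (25%) followed Vars upward and none downward, and all 16 slopes were above 0. Vars2 had a slope of 0.39 ± 0.09 (limma adjusted p = 0.0023), with values of 7.09 to 8.80 and a median of 8.21. This gene stands 659 kb from the pair, and the part of that nearness in its slope was not tested. Sars2, Yars2 and Cars2 had slopes of 0.37, 0.32 and 0.28 (adjusted p = 0.018, 0.050 and 0.017, that of Yars2 being 0.0497 before rounding). Of the scaffold genes of the synthetase complex, Aimp2 followed Vars (0.43 ± 0.10, adjusted p = 0.0044), while Aimp1 and Eef1e1 had 0.40 and 0.23 (adjusted p = 0.054 and 0.27). None of the 3 measured subunits of elongation factor 1, Eef1a1, Eef1b2 and Eef1d, passed (slopes 0.00 to 0.21, adjusted p of 0.11 or more; 1 of 3 at an unadjusted p of 0.05, and 1 of 3, Eef1b2, at the adjusted threshold without the low-correlation arrays).

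These counts moved with the normalization, with the low-correlation arrays and with a pair of marker scores. After quantile normalization 1 of 18 cytosolic genes and 3 of 16 mitochondrial genes followed Vars upward, where 6.16% of all genes did. Without the 6 arrays, 8 of 18 cytosolic genes (44.4%), 8 of 16 mitochondrial genes and 2 of 3 scaffold genes followed Vars, all upward, and Kars had a slope of 0.42 (limma adjusted p = 4.1e-05) and Vars2 of 0.42 (4.1e-05). Leaving out the tumor of animal 14864 alone gave 7 cytosolic genes. All 9 measured proliferation markers had slopes above 0 on Vars, 3 of them past the threshold with all tumors (Bub1 0.77, Top2a 0.70 and Tpx2 0.58, adjusted p = 0.017, 0.021 and 0.044; Mki67 0.58, 0.050) and 9 of 9 without the 6 arrays. The mean standardized value of these markers ran from -7.25 to 1.41 on the low level of Vars and from -1.83 to 1.83 on the high level. With this mean and that of the adipocyte markers as covariates, 0 of 18 cytosolic genes passed (limma; 5 at an unadjusted p under 0.05) and 382 genes did over all, 1.49% of genes upward. The scores entered this fit jointly, and the part of proliferation alone was not tested.

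**Figure D5:**
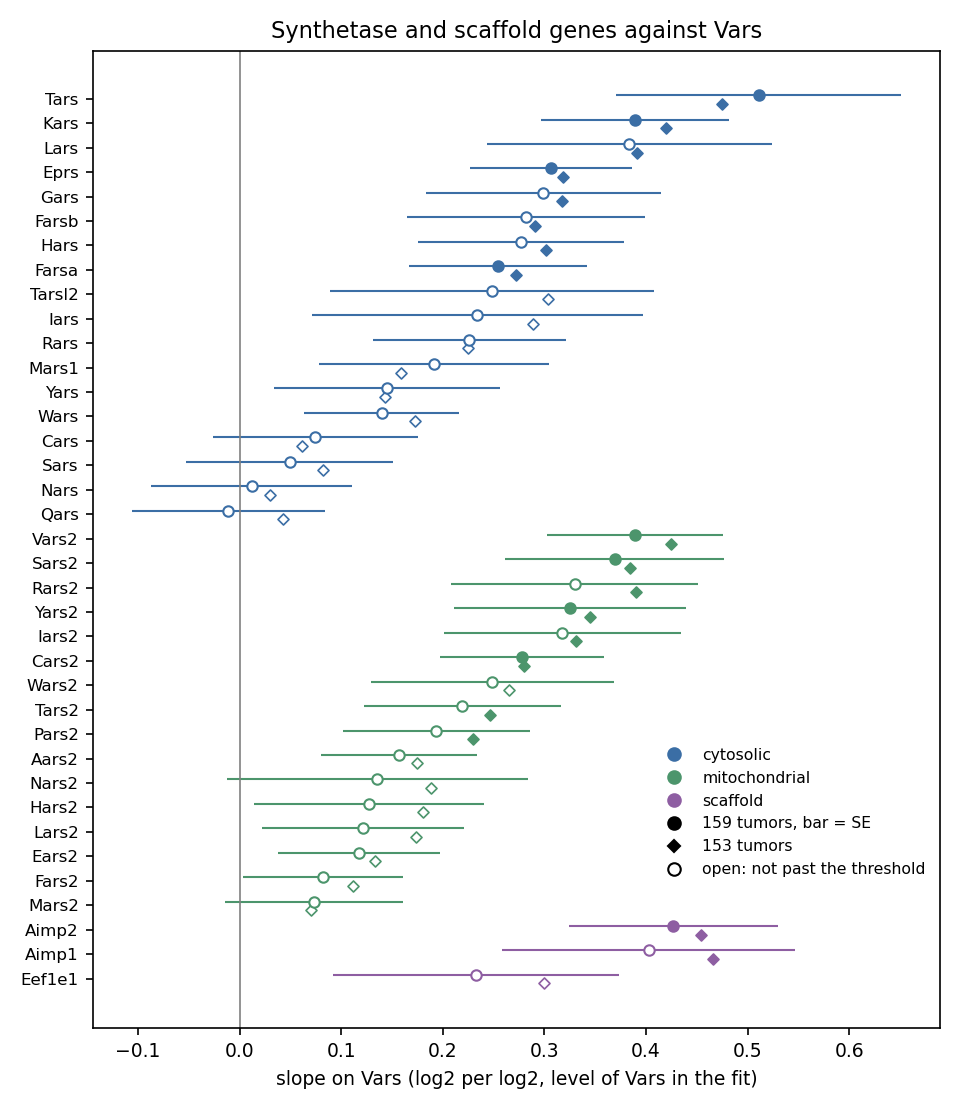
Slope of each synthetase and scaffold gene on Vars (log2 per log2, with the level of Vars in the fit); circles with SE bars are 159 tumors, diamonds are those without the low-correlation arrays, and filled symbols passed an adjusted p of 0.05. Cytosolic slopes run from -0.01 for Qars to 0.51 for Tars.

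The relation was looked at within each level of Vars for 16 named synthetase and scaffold genes, which gives 32 relations, each with a two-sided permutation p from 100000 resamples. Most of these genes were named for the size of their moderated t on Vars in the same tumors, so that the signs and p describe genes picked for the relation and are no independent evidence of it. All 16 correlations were above 0 on the low level and 13 of 16 on the high level, and in all 16 genes the r was larger on the low level, a difference that was not tested. For Kars r was 0.33 (p = 0.0019; rho 0.44, p = 6e-05; n = 84, permutation test) on the low level and 0.30 (p = 0.0078; rho 0.24, p = 0.040; n = 75) on the high level. For Eprs r was 0.49 (p = 1e-05, the smallest that the resamples can give; rho 0.54, p = 1e-05) and 0.13 (p = 0.28; rho 0.06, p = 0.60). For Vars2 r was 0.39 (p = 0.00047; rho 0.57, p = 1e-05) and 0.29 (p = 0.011; rho 0.29, p = 0.012). For Aimp2 r was 0.47 (p = 2e-05; rho 0.46, p = 1e-05) and 0.18 (p = 0.12; rho 0.19, p = 0.097). The values of p adjusted over all genes for these 4 are those of the limma fit given above. Without the 2 tumors farthest from the Vars median, r on the low level was 0.36 for Kars, 0.46 for Eprs, 0.39 for Vars2 and 0.47 for Aimp2. Without the low-correlation arrays it was higher, at 0.52 for Kars, 0.53 for Eprs, 0.61 for Vars2 and 0.59 for Aimp2 (n = 80). Within the first 3 runs of animal numbers, with all arrays, it was 0.20, 0.32 and 0.47 for Kars, 0.68, 0.52 and 0.35 for Eprs, 0.69, 0.59 and 0.25 for Vars2 and 0.68, 0.55 and 0.43 for Aimp2.

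The same fit on D17H6S56E-5 rested on a few arrays. With all 159 tumors, 26% of 18952 genes followed D17H6S56E-5 within its levels, 13.3% upward, and 7 of 18 cytosolic synthetase genes did so, all upward, led by Qars (slope 0.16 ± 0.03, limma adjusted p = 0.00016), Hars (0.16 ± 0.04, adjusted p = 0.0012) and Nars (0.15 ± 0.04, adjusted p = 0.0017). Without the 6 low-correlation arrays, 2.45% of genes passed (1.36% upward), and 0 of 18 cytosolic genes, 0 of 16 mitochondrial genes and 0 of 3 scaffold genes did, with Qars at 0.08 (limma adjusted p = 0.11). At an unadjusted p of 0.05, 5, 1 and 1 of them passed, and the share of all genes at that p is not given here. Of the 4930 genes called with all tumors, 457 were called without the 6 arrays. Leaving out the tumor of animal 14794 alone, with D17H6S56E-5 at 7.11, gave 2222 calls in all, and leaving out that of animal 14795, at 7.29, gave 3198. Both tumors are the lowest of the low level. Of the luminal epithelium markers, 6 of 8 followed D17H6S56E-5 upward with all tumors (Epcam 0.24, limma adjusted p = 7.8e-05) and 0 of 8 without the 6 arrays (Epcam 0.10, adjusted p = 0.093; 5 of 8 at an unadjusted p of 0.05). The 16 mitochondrial genes gave 4 calls and the 3 scaffold genes 2 with all tumors.

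Markers of other cell types were compared within the levels of Vars, where 10.2% of all genes passed the threshold in either direction with all tumors. No marker of T cells (6 measured), B and plasma cells (7), macrophages and dendritic cells (9), adipocytes (8), fibroblasts (8), skeletal muscle (8), luminal epithelium (8) or interferon response (6) passed the threshold with all tumors. Of these 60, 7 had an unadjusted p under 0.05, and the share of all genes at that p is not given here. Of 8 endothelial markers Vwf passed the threshold (slope -0.46 ± 0.15, limma adjusted p = 0.039). The adipocyte markers had the steepest median slope of these lists, -0.93 (-1.04 to -0.64), in none of 8 past the threshold. Without the low-correlation arrays Foxa1, a luminal transcription factor gene (-1.10, adjusted p = 0.026), and Zbtb46, a dendritic cell marker (-0.22, adjusted p = 0.045), passed as well, where 19.5% of all genes did. Without the level of Vars as a term, 11.9% of all genes followed Vars downward, and so did 8 of 8 fibroblast, 6 of 8 endothelial, 6 of 9 macrophage and dendritic cell, 5 of 8 adipocyte and 2 of 7 class II genes. None of the 7 other class II genes followed Vars, with slopes of -0.63 to -0.14 (2 of 7 at an unadjusted p of 0.05), and none followed D17H6S56E-5, with slopes of 0.01 to 0.23 (0 of 7).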

How the data were processed

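The authors measured total RNA of 159 tumors on Affymetrix Mouse Gene 1.0 ST arrays, and used BRB ArrayTools 4.3.2, with the median array as reference and no correction for batch. Their deposited values are on a log2 scale. The steps of background correction and probe summarization were not given in the sources used here. Of 20718 probe sets, 18965 had 1 gene symbol (18940 matched RefSeq), 688 had several and 1065 none, and only the first were used. Where a gene had several probe sets, that with the highest mean over the tumors was kept. Each array was shifted to the median array, and genes were fitted with limma 3.58.1 in R 4.3.3. The fit on Vars, the mixture rule and the permutation test were tried on simulated data, and the other steps were not. The members and all lists were chosen with earlier results of these data known. Genes were named by rule: both members, class II genes, the 10 most alike, 5 neighbours on each side, 9 cytosolic synthetases and up to 4 of each other list by size of the moderated t. An array was called low-correlation where its median correlation with the others lay under the first quartile by over 3 interquartile ranges. The number of arrays limits the precision.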

Additional observations from a re-analysis of the deposited data

How the results depend on the processing

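The number of tumors on the high level of D17H6S56E-5 and of Vars, and the 10 correlations of the pair and of each member with H2-Ea and H2-Eb1 within levels of D17H6S56E-5, stayed within 1.5 times or within the 95% interval of the reported value under other scaling, without the low-correlation arrays, with the run of animal numbers as a term, as Spearman's rho and with another mixture. Vars nevertheless changed level in 12 tumors with quantile normalization and in 11 with the run as a term. Within single runs some correlations left that interval, as D17H6S56E-5 with Vars (0.52 and -0.18 against 0.04 to 0.42) and with H2-Eb1 (0.45 and -0.26 against -0.12 to 0.28) on the low level. On the high level so did D17H6S56E-5 with H2-Eb1 (0.23 against 0.25 to 0.64) and with H2-Ea (0.40 and -0.17 against -0.09 to 0.39). The counts of genes that follow a member did not stay within 1.5 times the reported value under all settings. All genes that follow Vars numbered 1929 (1187 upward, 742 downward), against 493 at an adjusted p of 0.01, 735 (642 and 93) with values as deposited, 3688 without the low-correlation arrays, 688 (613 and 75) with the run of animal numbers as a term, 4774 without the level term, 382 with proliferation and adipocyte scores as covariates and 4323 on normal scores; quantile normalization gave 1538 (1168 and 370). Cytosolic synthetase genes that follow Vars numbered 4, against 2 at 0.01, 1 with quantile normalization, 8 without the low-correlation arrays, 9 without the level term, 0 with the covariates (limma; 5 at an unadjusted p under 0.05) and 9 on normal scores. All genes that follow D17H6S56E-5 numbered 4930 (2517 and 2413), against 1973 at 0.01, 2121 as deposited, 999 with quantile normalization, 465 without the low-correlation arrays, 217 without the level term and 2964 with the covariates. Cytosolic synthetase genes that follow D17H6S56E-5 numbered 7, against 2 with quantile normalization, 0 without the low-correlation arrays (5 at an unadjusted p under 0.05), 0 without the level term (3) and 11 on normal scores. On normal scores 23.4% of all genes followed D17H6S56E-5, 12.9% upward. The share of all genes at an unadjusted p is not given. Each of the 6 low-correlation arrays left out alone, chosen after seeing the data, gave 1816 to 2585 and 2222 to 5361 genes in all and 3 to 7 and 5 to 7 cytosolic genes for Vars and D17H6S56E-5. The causes were not tested. No paired analysis was possible because all tumors form 1 group.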

Other observations

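Of 20 measured ribosome biogenesis and MYC-responsive genes, 11 had slopes on Vars above 0 that passed limma's adjusted p of 0.05, 9 did not pass and none ran downward, a share of 55% against 6.26% upward over all genes. Without the 6 low-correlation arrays 16 passed (11.3% over all genes), and with proliferation and adipocyte scores as covariates 5 did (1.49%). The difference from the synthetase lists was not tested. Cad, which starts pyrimidine synthesis, had a slope of 0.74 ± 0.14 (limma adjusted p = 0.00034), and Nolc1, Rrp9 and Bop1, which act in the nucleolus, had 0.44, 0.38 and 0.44 (adjusted p = 0.0031, 0.0032 and 0.0037). The median slope of the list was 0.36, against -0.01 over all genes. On D17H6S56E-5, 3 of the 20 passed with all tumors and 0 without the 6 arrays.

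Of 25 measured genes that ATF4 induces when amino acids are short, 3 followed Vars upward, namely Shmt2, Aldh18a1 and Psph, enzymes of serine, glycine and proline synthesis (slopes 0.46, 0.41 and 0.40, limma adjusted p = 0.0099, 0.030 and 0.037), and 1 downward, Fgf21 (-0.22, adjusted p = 0.040). These 3 are 12% of the list, against 6.26% over all genes, and 1 ran upward with the run of animal numbers as a term and 0 with the covariates. The median slope of this list was 0.18. Of 5 measured snoRNA host genes, Snhg5 followed Vars (0.43, adjusted p = 0.030).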
